A study of Mus musculus with 9 samples.

Results

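Transcripts for 7 genes that move sodium and calcium across lens cell membranes were compared between E16.5 *Atf4* null and wildtype mouse lenses. The genes were taken by symbol from the 55416 genes counted in each library. They are the sodium pump β subunit genes *Atp1b1*, *Atp1b2* and *Atp1b3*, the endoplasmic reticulum calcium pump gene *Atp2a2*, the plasma membrane calcium pump genes *Atp2b1* and *Atp2b4*, and the sodium-calcium exchanger gene *Slc8a1*. RNA from the lens pair of each of 4 *Atf4* null and 5 wildtype embryos was sequenced, with 1 library per embryo. Null embryos were homozygous for *Atf4* tm1Tow, a germline allele in which a neomycin phosphotransferase cassette replaces exons 3 and 4 in every tissue of the embryo, while the exons before them remain. Wildtype embryos were littermates from heterozygous intercrosses. Both genotypes were on a mixed C57Bl/6/129 background that had not been genotyped for the *Bfsp2* deletion of the 129 strain, animals of both sexes were used, and no agent was given.

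The sodium pump exports sodium and imports potassium with energy from ATP. The pump needs a β subunit to fold and to reach the plasma membrane. The lens has no blood vessels, and pump activity is concentrated in its epithelium, where it sustains the ionic gradients and the circulating current that serve the fiber cells. Calcium is kept low in the cytoplasm by pumps that send it into the endoplasmic reticulum or out of the cell and by exchangers that use the sodium gradient. Raised calcium activates proteases that cleave lens proteins and is associated with cataract.

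Between 8409779 and 8906996 counts per wildtype library and between 7440807 and 8696699 per *Atf4* null library lay on genes. *Atf4* itself was at 119 to 155 CPM (counts relative to library size, scaled by edgeR's TMM factors) in wildtype and at 0.582 to 10.6 CPM in *Atf4* null libraries. Wildtype replicate 5 stood apart. Its skeletal muscle list summed to 9882 CPM, against 34.4 to 46.8 in the other wildtype libraries and 30 to 129 in the *Atf4* null libraries. Its mesenchyme list summed to 15725 CPM, against 251 to 331 and 459 to 835. All lens fiber markers but *Lim2*, which was listed at 0 in all 9 libraries, had counts in wildtype lenses, and *Lgsn* was also listed at 0 in all *Atf4* null libraries. The lens fiber list nevertheless summed to 32062 CPM in wildtype replicate 5, against 54934 to 60558 in the other wildtype libraries. Each log2 fold change and log2 ratio of the 7 genes is therefore also given without this library. Titles and count tables of the wildtype samples name different wildtype libraries, which leaves the numbering of wildtype replicates uncertain.

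All 7 genes passed the filter on low counts, which kept 14903 genes. The sodium pump subunit transcript *Atp1b3* was 1.76-fold lower in *Atf4* null lenses, and it was the only one of the 7 past the threshold of an adjusted p of 0.05 (quasi-likelihood test in edgeR, Benjamini-Hochberg adjusted over all genes tested). No gene of the 7 was called higher. Of all genes tested, 5.9% were called, 3.67% lower and 2.23% higher. The transcripts for calcium removal, *Atp2a2*, *Atp2b1*, *Atp2b4* and *Slc8a1*, had fitted values between 0.21 and 0.43 above wildtype on the log2 scale, and none passed the threshold with all 9 libraries. Without wildtype replicate 5, *Atp2b4* was called higher and *Atp1b3* lower, against 8.33% of 14493 genes called, 3.37% higher and 4.96% lower. The unadjusted p was below 0.05 for 3 of the 7 genes, *Atp1b3*, *Atp2a2* and *Slc8a1*, and for 19.6% of all genes tested. The plot of each transcript by library shows these values.

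**Figure D1:**
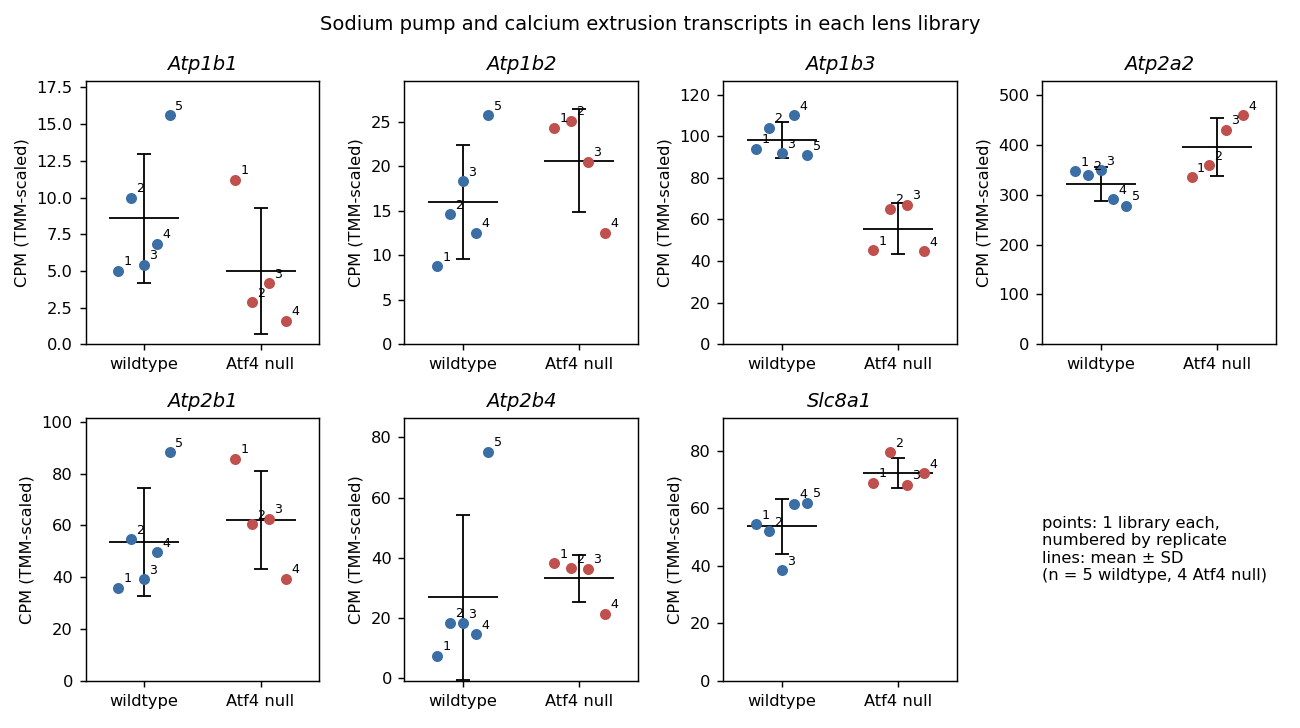
CPM (y axis, TMM-scaled) of each of the 7 transcripts in each library (points, numbered by replicate), with the mean and SD of 5 wildtype and 4 *Atf4* null libraries (lines). The 4 *Atf4* null libraries lie between 44.8 and 67.1 CPM for *Atp1b3*, below all wildtype libraries, and wildtype replicate 5 lies at 75.2 CPM for *Atp2b4*, above all others.

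Because ATF4 is a DNA-binding factor, the 250 bases before each start site were searched on both strands for the ATF4 element TGATGCAA, for the same element with any base at position 6 (TGATGNAA, which includes the first) and for the GC box GGGCGG. The RefSeq promoter table (build GRCm38.p6, whose positions are not those of the GRCm39 gene coordinates given for the counts) held 7 windows for 5 of the 7 genes. *Atp1b2* and *Atp2a2* were not matched. Neither form of the ATF4 element was found in the 7 windows, against 0.791% and 3.45% of 32851 windows of the same length, so most windows lack both. The windows of the transcript that fell and of the transcript that was higher once wildtype replicate 5 was left out are printed, with GC boxes, on either strand, in capitals. The first *Atp1b3* window lies at chr9:96364432-96364681 on the minus strand, and the *Atp2b4* window at chr1:133753748-133753997 on the minus strand.
Atp1b3: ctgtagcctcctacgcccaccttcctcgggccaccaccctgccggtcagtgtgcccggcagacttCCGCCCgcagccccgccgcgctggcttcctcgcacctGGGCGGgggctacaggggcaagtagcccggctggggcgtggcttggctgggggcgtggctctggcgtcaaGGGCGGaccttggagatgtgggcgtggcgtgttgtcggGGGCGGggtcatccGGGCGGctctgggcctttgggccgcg
Atp2b4: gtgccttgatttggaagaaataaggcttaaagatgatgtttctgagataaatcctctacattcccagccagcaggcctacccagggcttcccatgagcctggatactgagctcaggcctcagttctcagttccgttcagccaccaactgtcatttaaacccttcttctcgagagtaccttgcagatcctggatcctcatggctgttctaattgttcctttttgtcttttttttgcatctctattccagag
The first *Atp1b3* window was 73.6% G and C with 5 GC boxes, and the second *Atp1b3* window was 76.8% G and C with none. The *Atp2b4* window was 45.6% G and C, also with none. It ends in a run of T and gcatctctattccagag, which resembles the end of an intron before an exon. Start sites were those of the promoter table, and the start sites used in the lens were not determined. The letters of this window may therefore not be those of the *Atp2b4* promoter. A GC box was found in 32.7% of all windows. The *Atp1b1* window (70.4% G and C) held 2 GC boxes and the *Atp2b1* windows (78.4% and 80.8%) held 4 and 3, while the *Slc8a1* window (50.4% G and C) held none. A match describes letters in a window and was not tested as a binding site.

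*Atp1b3* (ENSMUSG00000032412) lies on chromosome 9 from 96214674 to 96246814 on the minus strand of GRCm39 and encodes the β3 subunit of the sodium pump. Its transcript stood at 93.9, 104, 91.7, 110 and 90.8 CPM in wildtype replicates 1 to 5 and at 45.3, 65.1, 67.1 and 44.8 CPM in *Atf4* null replicates 1 to 4. Every *Atf4* null library was below every wildtype library, and wildtype replicate 5 was not apart from its group. Groups that did not overlap were found for 10.2% of all genes tested. The means were 98.1 ± 8.62 CPM (SD, n = 5) and 55.6 ± 12.2 CPM (SD, n = 4). The log2 fold change was -0.82 (SE 0.15, 95% interval -1.14 to -0.49, adjusted p = 0.00581 by edgeR's quasi-likelihood test). The exact two-sided permutation test over the genotype labels of the 9 libraries gave p = 0.0079, the smallest it can give. With wildtype replicate 5 left out, the fitted value was -0.84 (adjusted p = 0.0025 by edgeR). *Atp1b3* did not pass the study's filter on size, since its log2 fold change was smaller than 1 in size, and no other of the 7 genes passed it, against 2.2% of all genes tested.

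Markers of several cell types also differed between the genotypes. Of 12 epithelium markers tested, 8 were lower and none higher in *Atf4* null lenses, with a median log2 fold change of -0.83. Their summed level was 2705 to 3434 CPM in *Atf4* null libraries, 4803 to 5098 in wildtype replicates 1 to 4 and 3395 in wildtype replicate 5. In that library *Atp1b3* stood at 0.909 of the mean of the other wildtype libraries, where a median epithelium marker stood at 0.662. The same library also held muscle and mesenchyme RNA, whose part in its *Atp1b3* level was not tested. Of 15 retina and neuron markers, 5 were higher and none lower, and their sum was 343 to 1065 CPM in *Atf4* null and 209 to 336 CPM in wildtype libraries. Lens fiber markers were lower for 5 of 15 and higher for none (median log2 fold change -0.43), with a sum of 24211 to 57785 CPM in *Atf4* null libraries. Erythroid markers were lower for 2 of 9 (median -1.03). Vascular endothelium markers were lower for 1 of 10 (median -0.68), with a sum of 235 to 466 CPM in *Atf4* null and 394 to 725 CPM in wildtype libraries. Of all genes tested, 3.67% were called lower. Without wildtype replicate 5, which had the sum of 725 CPM, no vascular endothelium marker was called. The part of these cell types in the result for *Atp1b3* was not tested. In whole lenses, fewer cells of a type and less RNA per cell cannot be told apart.

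*Atp1b1* (ENSMUSG00000026576, chromosome 1 from 164264678 to 164285957, minus strand) encodes the β1 subunit, common in many epithelia. It stood at 5.01, 10, 5.43, 6.84 and 15.6 CPM in wildtype and at 11.2, 2.88, 4.17 and 1.60 CPM in *Atf4* null lenses. *Atf4* null replicates 2, 3 and 4 were below every wildtype library, and replicate 1 was higher than 4 of the 5. The log2 fold change was -0.78 (SE 0.54, 95% interval -1.95 to 0.38, adjusted p = 0.484 by edgeR), so a fall and a small rise both lay within the interval. Leaving out 1 library moved it to -1.57 (without *Atf4* null replicate 1, adjusted p = 0.109) or to -0.45 (without wildtype replicate 5, adjusted p = 0.696, both by edgeR). Counts were 11 to 146 per library, the lowest of the 7 genes, and wildtype replicate 5 held 2.29 times the mean of the other wildtype libraries. *Atp1b1* overlaps *Nme7* on the opposite strand, and the strand setting of the counting is not given in the sources used here.

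*Atp1b2* (ENSMUSG00000041329, chromosome 11 from 69487651 to 69496851, minus strand) encodes the β2 subunit, best known from glia and neurons. It stood at 8.73, 14.6, 18.3, 12.5 and 25.7 CPM in wildtype and at 24.3, 25.1, 20.5 and 12.5 CPM in *Atf4* null lenses. The groups overlapped, with wildtype replicate 5 the highest of all libraries and *Atf4* null replicate 4 level with wildtype replicate 4. Its log2 fold change was 0.37 (SE 0.31, 95% interval -0.29 to 1.03, adjusted p = 0.581 by edgeR), and 0.61 with an adjusted p of 0.221 without wildtype replicate 5. The retina and neuron sum was 1065, 585, 652 and 343 CPM in *Atf4* null replicates 1 to 4, and its part in the *Atp1b2* level was not tested.

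The ratio of 2 transcripts within a library depends on how libraries are scaled only through the prior count added to both, which weighs most at low counts. The log2 ratio of *Atp1b2* to *Atp1b1* was 0.77, 0.53, 1.71, 0.85 and 0.71 in wildtype and 1.11, 3.02, 2.24 and 2.79 in *Atf4* null libraries. It was 1.37 higher in *Atf4* null lenses (exact two-sided permutation p = 0.024, and 0.095 after Benjamini-Hochberg adjustment over 4 ratios), so it did not pass the threshold after adjustment. Leaving out wildtype replicate 5 gave a difference of 1.32 (exact permutation p = 0.057). The log2 ratio of *Atp1b3* to *Atp1b1* differed by 0.13 (exact permutation p = 0.82, adjusted 0.91), and by -0.14 without wildtype replicate 5 (exact permutation p = 0.91). Per kilobase of exon, the 3 β subunit transcripts together stood at 33.5 ± 2.56 FPKM in wildtype and 20.7 ± 4.00 FPKM in *Atf4* null lenses (SD, n = 5 and 4). *Atp1b3* made up 87.7 ± 5.03% of the wildtype sum and 80.3 ± 7.32% of the *Atf4* null sum. *Atp1b2* made up 7.08 ± 2.83% and 14.7 ± 3.04%, with 4.27% to 11.2% in wildtype and 11.9% to 18.6% in *Atf4* null libraries. In FPKM, *Atp1b2* itself stood at 2.38 ± 0.96 in wildtype and 3.07 ± 0.856 in *Atf4* null lenses, with groups that overlapped. *Atp1b3* stood at 29.4 and 16.7 FPKM, and the share of 1 transcript also moves when another transcript of the sum moves. These shares are a description and were not tested.

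Levels of different genes were compared only as FPKM, which divides the CPM by the summed length of all annotated exons. In wildtype lenses the order was *Atp1b3* (29.4 ± 2.58), *Atp2a2* (26.2 ± 2.80), *Atp2b1* (3.23 ± 1.26), *Slc8a1* (2.83 ± 0.505), *Atp1b2* (2.38 ± 0.960), *Atp2b4* (2.16 ± 2.21) and *Atp1b1* (1.77 ± 0.908). *Atp1b3* and *Atp2a2* overlapped, both were above all the others, and neighbours among the other 5 overlapped. Without wildtype replicate 5, which stood at 6.07 FPKM for *Atp2b4*, the *Atp2b4* mean was 1.19 ± 0.417 FPKM (SD, n = 4), below *Atp1b1* at 1.41 ± 0.466, and *Slc8a1* (2.72 ± 0.511) and *Atp2b1* (2.71 ± 0.528) were level. In *Atf4* null lenses *Atp2a2* (32.4 ± 4.77) led *Atp1b3* (16.7 ± 3.65) without overlap, followed by *Slc8a1* (3.80 ± 0.276), *Atp2b1* (3.74 ± 1.14), *Atp1b2* (3.07 ± 0.856), *Atp2b4* (2.67 ± 0.634) and *Atp1b1* (1.02 ± 0.881). Neighbours from *Slc8a1* downward overlapped.

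**Figure D2:**
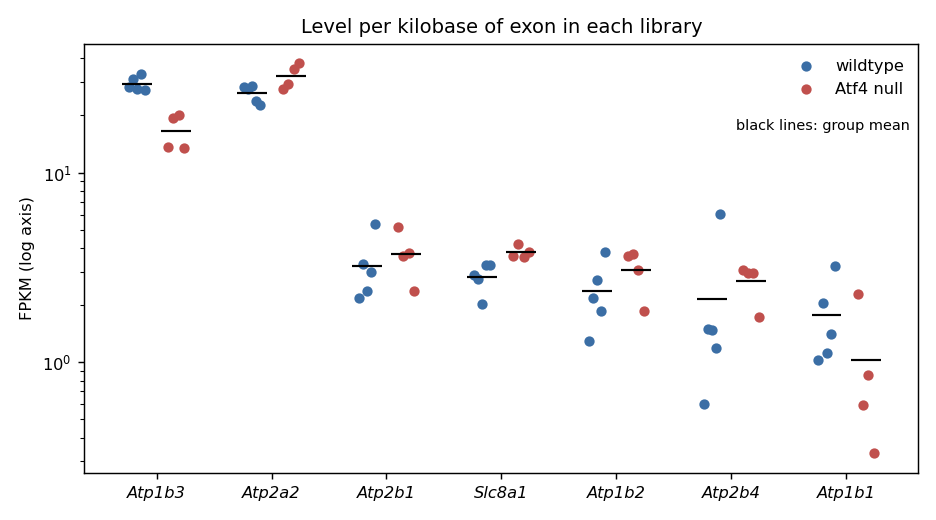
FPKM (y axis, log scale) of each of the 7 transcripts in each library, wildtype and *Atf4* null, with group means as black lines. *Atp1b3* and *Atp2a2* stand above the other 5 in both genotypes. In *Atf4* null lenses they lie at 13.4 to 20.1 and 27.5 to 37.6 FPKM.

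*Atp2a2* (ENSMUSG00000029467, chromosome 5 from 122591575 to 122640903, minus strand) encodes SERCA2, the pump that refills the endoplasmic reticulum with calcium. It stood at 348, 340, 350, 291 and 278 CPM in wildtype and at 336, 360, 431 and 460 CPM in *Atf4* null lenses. *Atf4* null replicate 1 was lower than 3 wildtype libraries, and the other 3 *Atf4* null libraries were above all of them. The log2 fold change was 0.31 (SE 0.13, 95% interval 0.03 to 0.58, unadjusted p = 0.0328, adjusted p = 0.201 by edgeR), and the exact permutation p was 0.063. Leaving out wildtype replicate 5 gave 0.26 (95% interval -0.01 to 0.53, unadjusted p = 0.0556, adjusted p = 0.246 by edgeR). When libraries were scaled by size alone, it was 0.42 (adjusted p = 0.0199 by edgeR), while the median of all genes moved from 0.001 to 0.125. *Atp2a2* overlaps *Anapc7* on the opposite strand.

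*Slc8a1* (ENSMUSG00000054640, chromosome 17 from 81680534 to 82045891, minus strand) encodes the exchanger NCX1, which trades sodium for calcium at the plasma membrane. It stood at 54.4, 52.0, 38.4, 61.6 and 61.9 CPM in wildtype and at 68.8, 79.5, 68.1 and 72.1 CPM in *Atf4* null lenses. Every *Atf4* null library was above every wildtype library, and groups did not overlap for 10.2% of all genes tested. Its log2 fold change was 0.43 (SE 0.15, 95% interval 0.10 to 0.75), with an adjusted p of 0.125 by edgeR's quasi-likelihood test and an exact permutation p of 0.024, so the difference did not pass the threshold over all genes. Without wildtype replicate 5 it was 0.49 with an adjusted p of 0.0634.

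*Atp2b1* (ENSMUSG00000019943, chromosome 10 from 98750268 to 98862488, plus strand) encodes the plasma membrane calcium pump PMCA1, found in most cells. It stood at 35.9, 54.7, 39.3, 49.7 and 88.3 CPM in wildtype and at 85.7, 60.5, 62.6 and 39.5 CPM in *Atf4* null lenses. The *Atf4* null values lay inside the wildtype range. On the log2 scale the difference was 0.21 (SE 0.26, 95% interval -0.36 to 0.78, adjusted p = 0.737 by edgeR), and 0.47 with an adjusted p of 0.194 without wildtype replicate 5. Without *Atf4* null replicate 1, which had the highest retina and neuron sum, it was 0.01 (adjusted p = 0.987 by edgeR). The part of retina RNA in these values was not tested.

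*Atp2b4* (ENSMUSG00000026463, chromosome 1 from 133627195 to 133728923, minus strand) encodes PMCA4, a plasma membrane calcium pump of muscle and many other tissues. It stood at 7.45, 18.5, 18.3, 14.7 and 75.2 CPM in wildtype and at 38.2, 36.5, 36.4 and 21.4 CPM in *Atf4* null lenses. Wildtype replicate 5 was the highest of all, at 5.10 times the mean of the other wildtype libraries, and the other 4 wildtype libraries were below every *Atf4* null library. With all 9 libraries the log2 fold change was 0.30 (SE 0.50, 95% interval -0.79 to 1.39, adjusted p = 0.820 by edgeR). Without wildtype replicate 5 it was 1.17 (SE 0.28, 95% interval 0.58 to 1.76, adjusted p = 0.0146 by edgeR), or 2.25-fold higher. The exact permutation p was then 0.029, the smallest that these 8 libraries can give, and groups without overlap were found for 15.2% of all genes. In the same library *Atp2a1*, the fast muscle calcium pump gene, had 534 counts, against 0 to 28 in the others, and *Atp1b4*, the muscle member of the β subunit family, had 517, against 0 to 8. Neither passed the filter on low counts. The part of muscle and mesenchyme RNA in the value of this library was not tested. With that library left out, markers of other cell types were also called higher in *Atf4* null lenses, 6 of 10 mesenchyme, 7 of 15 retina and neuron and 2 of 5 pigment cell markers. Their part in the higher *Atp2b4* level was not tested. The log2 ratio of *Atp2b4* to *Atp2b1* was 0.49 higher in *Atf4* null lenses (exact permutation p = 0.26, adjusted 0.52), and 0.77 higher without wildtype replicate 5 (exact permutation p = 0.057). That of *Atp2a2* to *Atp2b1* differed by 0.07 (p = 0.91 by exact permutation, adjusted 0.91), and by -0.18 without that library (p = 0.63 by exact permutation).

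**Figure D3:**
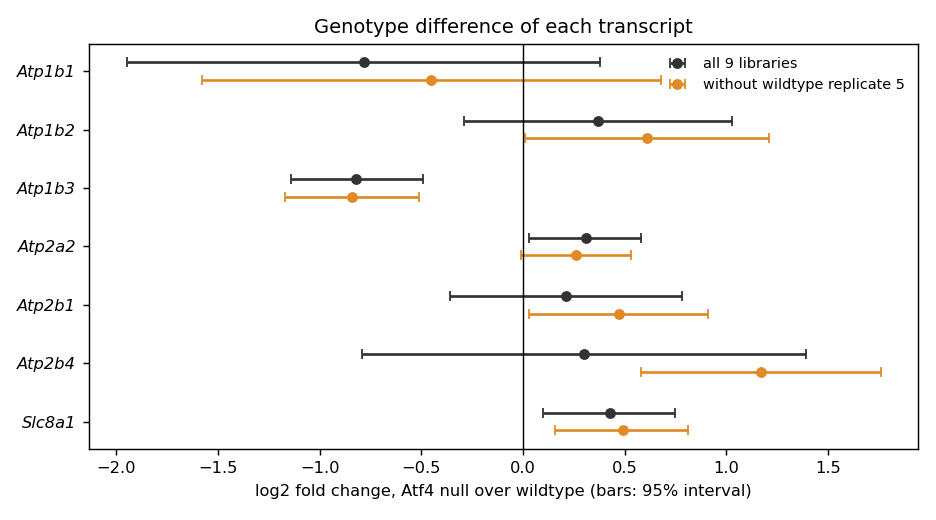
Log2 fold change of *Atf4* null over wildtype (x axis; points) with 95% intervals (bars) from edgeR for each of the 7 transcripts, with all 9 libraries and without wildtype replicate 5. The interval of *Atp1b3* stays below 0 in both fits, and that of *Atp2b4* moves from -0.79 to 1.39 to 0.58 to 1.76.

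**Figure D4:**
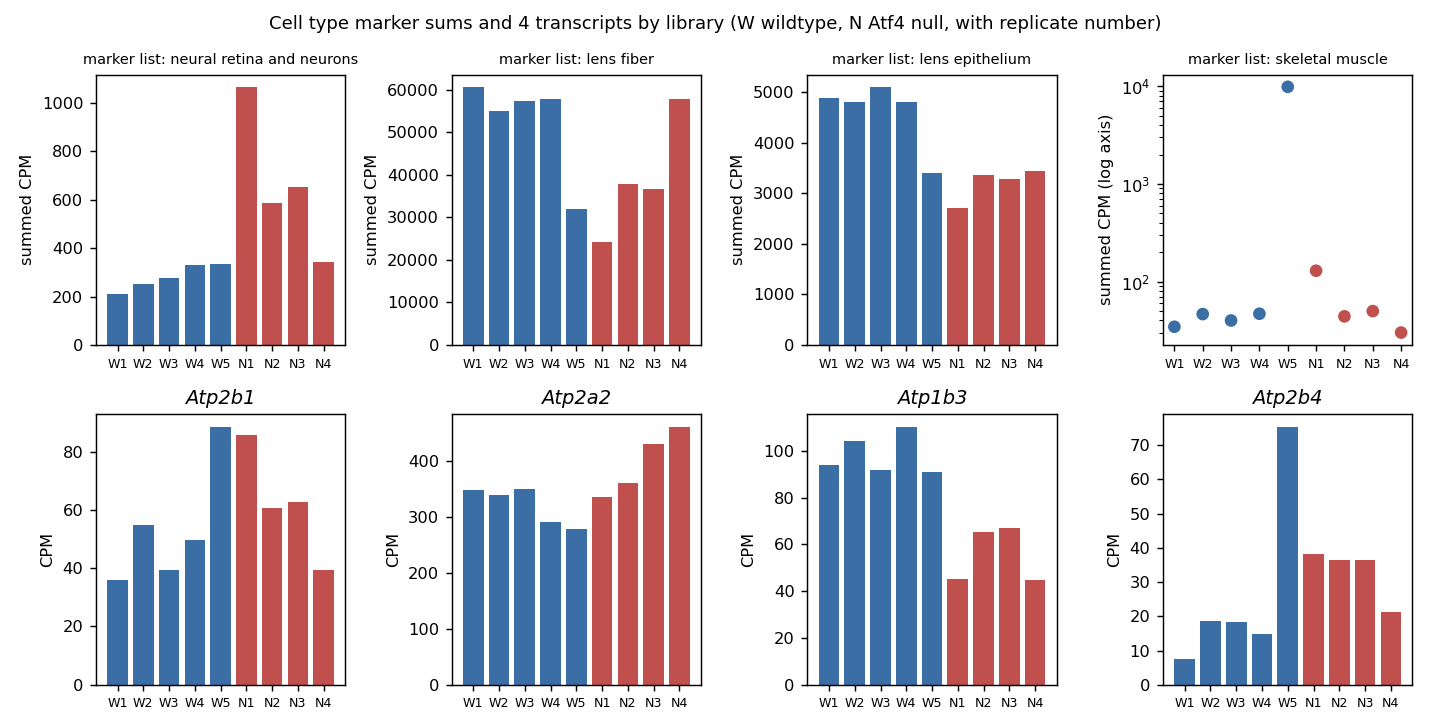
Summed CPM of 4 marker lists (upper row, skeletal muscle on a log axis) and CPM of 4 transcripts (lower row) in each wildtype (W) and *Atf4* null (N) library. The muscle sum of wildtype replicate 5 is 9882 CPM, and the retina and neuron sum of *Atf4* null replicate 1 is 1065 CPM, against 343 to 652 in the other 3.

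Among the other genes of sodium pumps, calcium pumps, channels, ion transporters and calcium-binding proteins, 69 of the 88 listed genes reported here were tested. Of these, 4 fell and none rose in *Atf4* null lenses, or 5.8%, against 5.9% of all genes tested, with a median log2 fold change of -0.04. The share was thus close to that of all genes. The sodium pump regulators reported here had none of 6 past the threshold, with a median of 0.38. The other calcium pumps and exchangers had none of 13 past the threshold, with a median of -0.12, and the genes of calcium entry and release none of 19, with a median of 0.05. The ion transporters had 2 of 19 lower, and the calcium-binding proteins and calpains 2 of 12 lower. No list had a gene called higher.

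The pump regulators *Fxyd1*, *Fxyd5* and *Fxyd6* had log2 fold changes of 0.29, -0.88 and 0.47, with adjusted p-values of 0.757, 0.507 and 0.627 by edgeR. They stood at mean levels of 6, 4.36 and 5.66 CPM in wildtype lenses.

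None of the other calcium pump and exchanger genes tested passed the threshold. *Atp2c1*, the Golgi calcium and manganese pump gene, stood at 110 ± 17.7 CPM in wildtype and 87.4 ± 11.8 CPM in *Atf4* null lenses (log2 fold change -0.33, 95% interval -0.64 to -0.03, adjusted p = 0.21 by edgeR). The other tested genes of the Atp2 and Slc8 families had mean levels below 9 CPM. They were *Atp2a3* (log2 fold change -1.0, adjusted p = 0.672), *Atp2b2* (0.21, 0.93), *Slc8a2* (-0.04, 0.983), *Slc8a3* (0.73, 0.377) and the mitochondrial exchanger gene *Slc8b1* (-0.62, 0.745), all by edgeR.

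*Slc20a2*, which encodes a sodium-dependent phosphate transporter, fell from 164 ± 31.2 to 60.6 ± 7.07 CPM, or 2.70-fold (log2 fold change -1.43, SE 0.16, adjusted p = 1.72e-04 by edgeR). Wildtype replicate 5 stood at 109 CPM for *Slc20a2*, the lowest of its group and above the highest *Atf4* null value of 70.6. *Sgk1*, a kinase that promotes sodium transport in epithelia, fell from 27.4 ± 6.42 to 13.4 ± 2.25 CPM (adjusted p = 0.019 by edgeR), with wildtype replicate 1 at 16.3 CPM inside the *Atf4* null range. *Calm3*, 1 of the genes for calmodulin, the calcium sensor that activates the plasma membrane calcium pumps, fell from 320 ± 25.6 to 235 ± 26 CPM (adjusted p = 0.0352 by edgeR). *Capn3*, a calcium-dependent protease that is abundant in the rodent lens, fell from 93.6 ± 35.2 to 26.3 ± 7.91 CPM, or 3.56-fold (adjusted p = 0.00325 by edgeR). In wildtype replicate 5 it stood at 42.3 CPM, the lowest of its group and above the highest *Atf4* null value of 32.3. Lens epithelium and fiber markers were also called lower (8 of 12 and 5 of 15), and the part of cell types in these falls was not tested. Without wildtype replicate 5, 4 of 67 genes tested were lower and 1 higher, against 4.96% and 3.37% of all genes in that fit. The gene called higher was *Slc12a4*, a potassium-chloride cotransporter gene (log2 fold change 1.60, adjusted p = 4.04e-04 by edgeR). With all 9 libraries its log2 fold change was 0.90 (adjusted p = 0.257 by edgeR), and wildtype replicate 5 stood at 40.7 CPM, inside the *Atf4* null range of 24.7 to 41.6. Without that library, mesenchyme, retina and neuron, and pigment cell markers were also called higher (6 of 10, 7 of 15 and 2 of 5). Their part in the *Slc12a4* call was not tested.

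**Figure D5:**
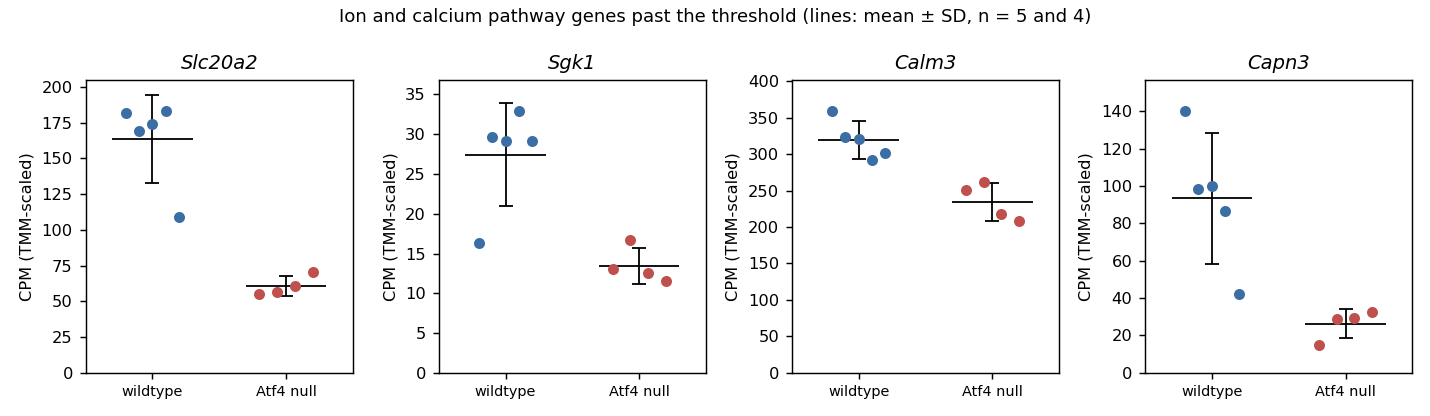
CPM (y axis) of the 4 ion and calcium pathway genes past the threshold in each library (points), with the mean and SD of 5 wildtype and 4 *Atf4* null libraries (lines). The groups do not overlap for *Slc20a2*, *Calm3* and *Capn3*, and overlap at 1 wildtype library for *Sgk1*.

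Over the 9 libraries and 9367 genes with a mean of at least 10 CPM, the levels most like *Atp1b3* by Pearson r of log2 CPM were those of *Uqcrh*, a respiratory complex III subunit gene (0.978), *Lamc1*, the laminin γ1 gene (0.976), and *Eif4a2*, a translation initiation factor gene (0.975). After the genotype means were subtracted, r was 0.88, 0.87 and 0.92. The points share their libraries and the values are a description. *Uqcrh* stood at 36.2 ± 6 and 14.8 ± 3.44 CPM, *Lamc1* at 555 ± 16.2 and 355 ± 52.7 CPM, and *Eif4a2* at 255 ± 18.0 and 203 ± 18.7 CPM in wildtype and *Atf4* null lenses. *Uqcrh* (adjusted p = 0.00287) and *Lamc1* (0.00585) were called lower, and *Eif4a2* (0.105) was not called, all by edgeR. Within the 7 genes and after the same subtraction, *Atp2b1* was close to *Atp1b1* (r = 0.92) and *Atp2b4* to *Atp1b2* (r = 0.90), while r of *Atp1b3* with the other 6 lay between -0.12 and 0.23. These values include wildtype replicate 5 and carry no test.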

How the data were processed

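Libraries were made with a stranded total RNA kit from single E16.5 lens pairs, 4 of *Atf4* null and 5 of wildtype embryos. The authors used Trim Galore for trimming, HISAT2 to remove ribosomal reads, GRCm39 as the genome and HTSeq to count reads per Ensembl gene. The deposited values were whole counts per gene without normalization, and 44.6% to 47.7% of each library lay in HTSeq entries that name no gene and were left out. Symbols, positions and exon lengths came from GENCODE vM39 (GRCm39), which named 54749 of the 55416 genes.

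Counts were analysed with edgeR 4.0.16 in R 4.3.3 (filterByExpr, TMM factors, quasi-likelihood test, no covariate, Benjamini-Hochberg adjustment over 14903 genes). Log2 ratios used a prior count of 2 and exact permutation tests. Motifs were searched with Python 3.11.15. The code was tested on simulated data. Alternatives were DESeq2 1.42.0, exactTest, other scalings and filters, a robust fit, a replicate block and each library left out. Leaving wildtype replicate 5 out of the pathway lists and the FPKM means was chosen after seeing the data. The 7 genes and the lists were chosen with earlier results of these data known. The genes named beside the 7 were the tested and reported members of the Atp1b, Atp2a, Atp2b, Atp2c, Slc8 and Fxyd families, the listed genes past the threshold, and the 3 genes most like *Atp1b3*. *Atp1b4*, *Atp2a1* and *Slc12a4* were named after their values were seen. Of the listed genes 4 are not reported here, and the list counts leave them out.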

Additional observations from a re-analysis of the deposited data

Results flagged for a closer look

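In groups of 4 or 5 libraries, a sample was picked out when its gap to the nearest other sample was a large part of the range of its group. Of 22 groups examined, 3 had such a sample. Chance alone gives about 1 in 20 if values are normally distributed. The groups share the same libraries and the ratios reuse the same transcripts, so the groups are not independent. *Atp2b4* in wildtype replicate 5 stood at 75.2 CPM, far above the next wildtype library, and this library also holds muscle and mesenchyme transcripts. *Atp2b4* in *Atf4* null replicate 4 stood at 21.4 CPM, far below the other 3 of its group, which lay between 36.4 and 38.2. The log2 ratio of *Atp1b2* to *Atp1b1* in wildtype replicate 3 was 1.71, above the other wildtype libraries, which lay between 0.53 and 0.85.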

How the results depend on the processing

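*Atp1b3* was lower and past the threshold in all 17 alternatives, with log2 fold changes from -0.92 to -0.69 and adjusted p-values from 3.74e-05 to 0.0208. *Atp1b1*, *Atp1b2*, *Atp2b1* and *Slc8a1* kept their sign and did not pass in any of the 17. With 1 library left out, *Atp1b1* ran from -1.57 (without *Atf4* null replicate 1) to -0.45 (without wildtype replicate 5), *Atp1b2* from 0.21 (without wildtype replicate 1) to 0.61 (without wildtype replicate 5), *Atp2b1* from 0.01 (without *Atf4* null replicate 1) to 0.47 (without wildtype replicate 5) and *Slc8a1* from 0.33 to 0.49. *Atp2a2* passed only when scaled by library size alone (0.42), and with that scaling 64.3% of 1229 calls were higher, against 37.8% of 880. *Atp2b4* passed without wildtype replicate 5 (1.17) and with the replicate block (1.2, adjusted p = 0.0326). The block is no separate support, since no *Atf4* null library has number 5 and wildtype replicate 5 then adds nothing to the genotype difference. With 1 library left out, *Atp2b4* ran from 0.06 to 1.17. Deviations of same-numbered samples correlated at -0.13 to 0.01, and the block moved no other call of the 7. Since the wildtype numbers are uncertain, this does not settle whether samples were paired. The number of genes past the threshold was 1397 with DESeq2 and 527 to 1207 with 1 library left out. With 1 library left out, the log2 ratio of *Atp1b3* to *Atp1b1* ran from -0.16 to 0.71, reversing without *Atf4* null replicate 2 (-0.09), *Atf4* null replicate 4 (-0.16) and wildtype replicate 5 (-0.14). That of *Atp2a2* to *Atp2b1* ran from -0.21 to 0.31, reversing without *Atf4* null replicate 4 (-0.21) and wildtype replicate 5 (-0.18). That of *Atp1b2* to *Atp1b1* ran from 1.13 to 1.77, with an exact permutation p of 0.057 without wildtype replicates 1, 2, 4 or 5. The cause of these changes was not tested. *Atp1b1* had the fewest counts of the 7 genes, 11 to 146 per library, and the largest SE of its log2 fold change (0.54). The part of low counts in this was not tested.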
